A study of Oryza sativa Japonica Group with 20 samples.

Results

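CB6 (AK106085) is a rice gene annotated as a chlorophyll a/b binding protein, and it was chosen for its rise in dehydrated roots. It was 1 of 27609 genes measured on the arrays. Leaves and roots of the japonica cultivar Nakdong were collected separately before air drying (0 h) and after it had gone on for 0.5 h, 2 h, 6 h or 12 h, with 2 biological replicates for each of the 10 groups of tissue and time. Each of the 20 samples was hybridised with Cy3 on a NimbleGen array. All seedlings were non-transgenic and 14 days old, and all had stood in fresh water for 1 day after removal from soil, including those of the 0 h groups. They were then dried at 32 °C and 50% humidity under continuous light, with the roots wrapped in tissue and in foil outside it. The groups without drying (0 h) served as the controls for the 4 later times of the same tissue, so all comparisons within a tissue share the same 2 control arrays. The feature was followed against 2 references: the RANDOM feature, which gives the signal of unspecific sequence on each array, and genes whose levels in leaf and root at 0 h were like those of CB6.

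Chlorophyll a/b binding proteins hold chlorophyll and carotenoids in the light-harvesting antennae of the photosystems in the thylakoid membrane, and pass the absorbed light energy to the reaction centres. They are encoded in the nucleus by a gene family, made in the cytosol and imported into chloroplasts. Their messenger RNAs are known to be abundant in green leaves and scarce in roots, which carry few or no chloroplasts.

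The primers with which the study amplified CB6 by RT-PCR are shown because the study lists them as specific to this gene. That specificity was not tested here. Both are written 5′ to 3′ in lower case, each has 20 bases and a GC content of 50%, and they are separate from the 10 array probes behind the intensity of CB6.
CB6 forward: aacatcctcaccagcctcaa
CB6 reverse: acgcaccatcgatcgtacaa

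The values were linear intensities after RMA (robust multi-array average), which combines the probes of a gene into a single value per array. The median intensity over all features lay between 1954 and 2741 on the 20 arrays. The RANDOM feature lay between 115 and 228 on 18 of them, and at 362 and 340 on the other 2, which were leaf 0.5 h replicate 1 and root 0.5 h replicate 2. On these 2 arrays 21.1% and 20.0% of the genes lay below RANDOM, so the 0.5 h values of dim genes are given with both replicates. Replicates of a group correlated with r between 0.899 and 0.981 over all features. The leaf markers CB1 to CB5 and rbcS, the small subunit gene of the carbon-fixing enzyme Rubisco, summed to 282216 and 269645 in the leaves at 0 h and to 5838 and 4922 in the roots at 0 h. The tissue labels thus matched the markers, although all 6 markers stood above RANDOM on every root array. Since each sample was a whole tissue, fewer cells of a type and less RNA per cell cannot be told apart.

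In roots CB6 was below the unspecific signal before drying, above it on 1 of 2 arrays at 0.5 h, and above it on both arrays from 2 h on. In the roots at 0 h its intensity was 102 and 84.3, and RANDOM gave 161 and 146 on the same arrays. At 0.5 h it was 345 and 83.8, against RANDOM signals of 188 and 340. CB6 thus lay below RANDOM on 3 of these 4 arrays, and the 0.5 h replicates overlapped those of 0 h.

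At 2 h the intensity of CB6 in roots was 4045 and 5262. At 6 h it was 3490 and 2661, and at 12 h it was 847 and 1892. All 6 arrays of these times were above all 4 arrays of the earlier times, and the 3 times did not overlap one another. As multiples of the RANDOM signal of the same array, CB6 stood at 21.9 and 33.1 at 2 h, at 17.8 and 15.4 at 6 h, and at 3.71 and 10.5 at 12 h. Its place among all genes moved likewise, from 4.97% and 4.26% of the genes lying below it at 0 h to 61.6% and 68.5% at 2 h. At 12 h 28.9% and 43.8% of the genes still lay below it.

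**Figure D1:**
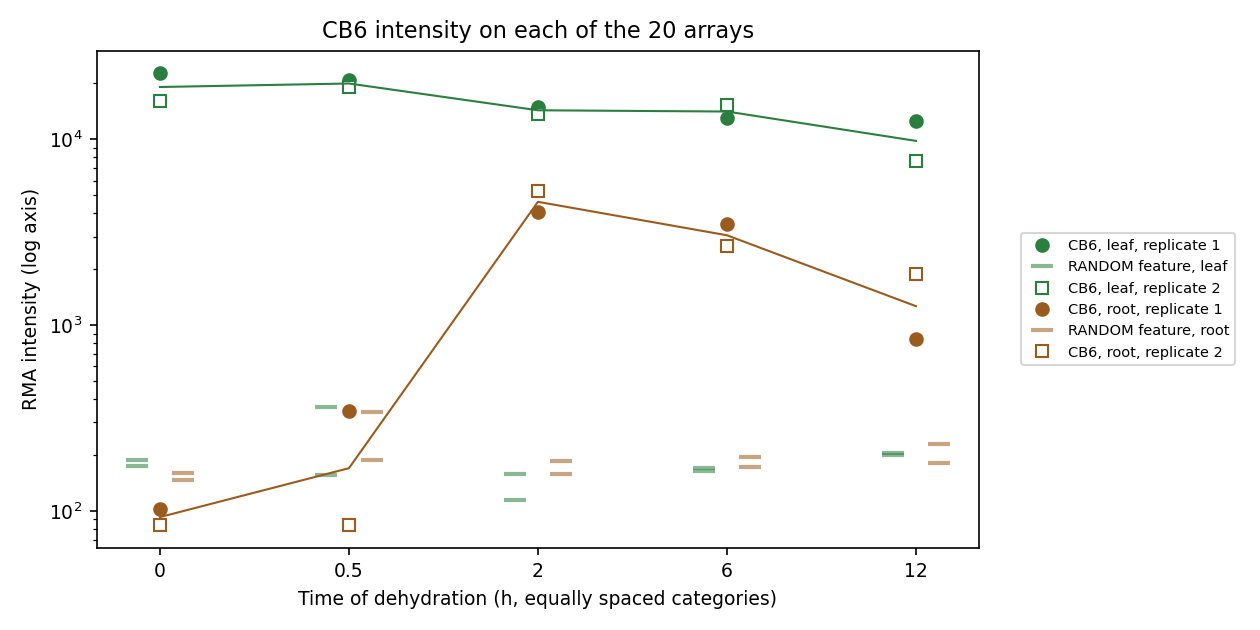
Intensity of CB6 after RMA (log axis) on each of the 20 arrays against the time of dehydration in hours (equally spaced categories); circles are replicate 1, squares are replicate 2, lines join the group means of the log2 values, and short bars give the RANDOM feature of each array. The leaf arrays lie between 7630 and 22672 throughout, and the root arrays go from 84.3 and 102 at 0 h to 4045 and 5262 at 2 h.

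Because CB6 was chosen for its rise in root, the size of that rise is a description and carries no test. On the log2 scale the measured change from 0 h was 0.87 at 0.5 h. It was then 5.64 at 2 h, 5.04 at 6 h and 3.77 at 12 h, all with an SE of 0.54 from the fit over all 20 arrays. Both 0 h arrays lay below RANDOM, and with the 0 h values raised to RANDOM the rise was at least 30.1-fold at 2 h, at least 19.9-fold at 6 h and at least 8.27-fold at 12 h. Of the 27609 genes, 8 had a larger measured rise in root than CB6 at 2 h, 17 at 6 h and 69 at 12 h, whereas 2172 did at 0.5 h. With values below RANDOM raised to it in all genes, 12, 33 and 124 genes had a larger rise at 2, 6 and 12 h. For background, 0.29%, 1.67%, 2.19% and 3.31% of all genes were called higher in root in order of time, and 1.4%, 1.79%, 6.12% and 10.9% were called lower, where a call means an adjusted p under 0.05 (limma, Benjamini-Hochberg) and a change of more than 1 on the log2 scale.

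The rise did not last at its full height. From 2 h to 6 h the log2 level of CB6 in root fell by 0.60, and from 6 h to 12 h it fell by 1.27. Both 6 h arrays were below both 2 h arrays, and both 12 h arrays were below both 6 h arrays. The distance between replicates differed between times. The higher replicate was 1.30 times the lower at 2 h and 1.31 times at 6 h, but 2.23 times at 12 h and 4.11 times at 0.5 h, so the 12 h level was the least precise of the 3 raised ones.

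In leaves CB6 was high at every time and its intensity was lower at the later times, but none of the changes passed the test. Before drying the arrays gave 22672 and 16165, and after 0.5 h they gave 20999 and 19029. The 2 h arrays had 14942 and 13769, the 6 h arrays 13073 and 15262, and the 12 h arrays 12632 and 7630. The 0.5 h arrays lay within the range of the 0 h arrays, and both arrays of each of the 3 later times lay below both 0 h arrays. The leaf arrays stood between 38.1 and 121 times above RANDOM, and from 97.7% of the genes on a 0 h array to 78.9% on a 12 h array lay below CB6.

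The log2 change of CB6 in leaf was 0.06 at 0.5 h (95% confidence interval -1.09 to 1.21; limma adjusted p = 0.948). It was -0.42 at 2 h (-1.57 to 0.74; limma adjusted p = 0.695) and -0.44 at 6 h (-1.59 to 0.71; limma adjusted p = 0.618). At 12 h it was -0.96 (-2.12 to 0.19; limma adjusted p = 0.266), and the mean intensity was 47.8% below that of 0 h. In the same 4 leaf comparisons, in order of time, 0.261%, 3.62%, 8.72% and 10.2% of all genes were called lower, and 0.145%, 8.32%, 5.72% and 5.53% were called higher. With 2 arrays per group, the interval at 12 h still holds no change at all.

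Ordered by mean intensity, the 10 groups of CB6 fell into 3 ranges. The leaf groups came first, from 20014 ± 1393 (SD, n = 2) at 0.5 h and 19418 ± 4601 at 0 h, over 14356 ± 829 at 2 h and 14168 ± 1548 at 6 h, to 10131 ± 3537 at 12 h. The raised root groups followed with 4654 ± 861 at 2 h, 3076 ± 586 at 6 h and 1369 ± 739 at 12 h, and the root groups at 0.5 h (214 ± 184) and 0 h (93.1 ± 12.5) came last. Neighbours whose replicates overlapped were leaf 0.5 h and 0 h, leaf 2 h and 6 h, and root 0.5 h and 0 h. No root array reached the lowest leaf array.

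The distance between the tissues was thus smaller at 2 h than at 0 h without closing. At 0 h the log2 level of CB6 in root minus that in leaf was -7.69, or at least 125-fold lower with the root raised to RANDOM. The same difference was -6.88 after 0.5 h, and -1.64, -2.21 and -2.96 after 2, 6 and 12 h. As a percentage of its own mean in leaf at 0 h, CB6 in root stood at 0.480% before drying and at 24.0%, 15.8% and 7.05% after 2, 6 and 12 h. The change in root exceeded the change in leaf by 6.05 at 2 h, 5.48 at 6 h and 4.73 at 12 h on the log2 scale (SE 0.76 each).

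Genes with a like starting pattern, high in leaf and dim in root, had smaller changes in root from 2 h on. Within 1 log2 unit of the CB6 mean both in leaf and in root at 0 h lay 17 other genes. The nearest was 0.47 away in the tissue where it differed more, the farthest inside was 0.93 away, and the first gene outside was 1.00 away. These genes were chosen on the 0 h arrays, which are also the base of the changes, so their later levels are given beside the changes. At 2 h their median log2 change in root was 0.43 (range -0.62 to 2.23), at 6 h it was 0.53 (-0.45 to 2.44) and at 12 h it was 1.01 (0.25 to 2.27). None of the 17 changed more than CB6 at 2, 6 or 12 h, and 6 did at 0.5 h, when their median was 0.44.

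The levels reached by these genes showed the same distance. As a percentage of each gene's own leaf mean at 0 h, their median in root was 0.796% before drying and 1.03%, 1.22% and 1.79% after 2, 6 and 12 h. The highest of the 17 stood at 4.60% at 2 h, 5.22% at 6 h and 4.59% at 12 h, against 24.0%, 15.8% and 7.05% for CB6. At 0 h none of the 17 was above RANDOM on both root arrays, and at 12 h 6 were. With only the 0 h values raised to RANDOM their median changes were 0.00 at 2 h, -0.05 at 6 h and 0.56 at 12 h. Later values below RANDOM were left as they were, which pulls these medians down. At 2, 6 and 12 h, 7, 6 and 1 of the 17 lay below RANDOM on both arrays. With values raised to RANDOM at all times, which selected 41 genes, the medians were 0.23, 0.40 and 0.75.

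Of the like-level genes, 0, 1, 1 and 3 of 17 were called higher in root in order of time, beside 0.29%, 1.67%, 2.19% and 3.31% of all genes. The choice of genes dim in root at 0 h favours rises from those same arrays, where 10 of the 17 lay below RANDOM on both. These counts are therefore a description and carry no test. AK067677, named after its values were seen, was the gene called at 2 h (log2 change 2.23), at 6 h (2.44) and at 12 h (2.27). AK059037 (2.24) and AK064977 (1.22), named in the same way, were called with it at 12 h. In leaf the 17 genes had median changes of -1.48 at 2 h, -1.90 at 6 h and -1.89 at 12 h. Of these genes 6, 9 and 9 were called lower, beside 3.62%, 8.72% and 10.2% of all genes. Their median leaf level was 36.1%, 26.9% and 27.2% of each gene's own mean at 0 h, against 73.9%, 73.0% and 52.2% for CB6. The choice of genes high in leaf at 0 h favours falls from those same arrays, so these counts also carry no test. CB6 was not called in leaf at any of these times.

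**Figure D2:**
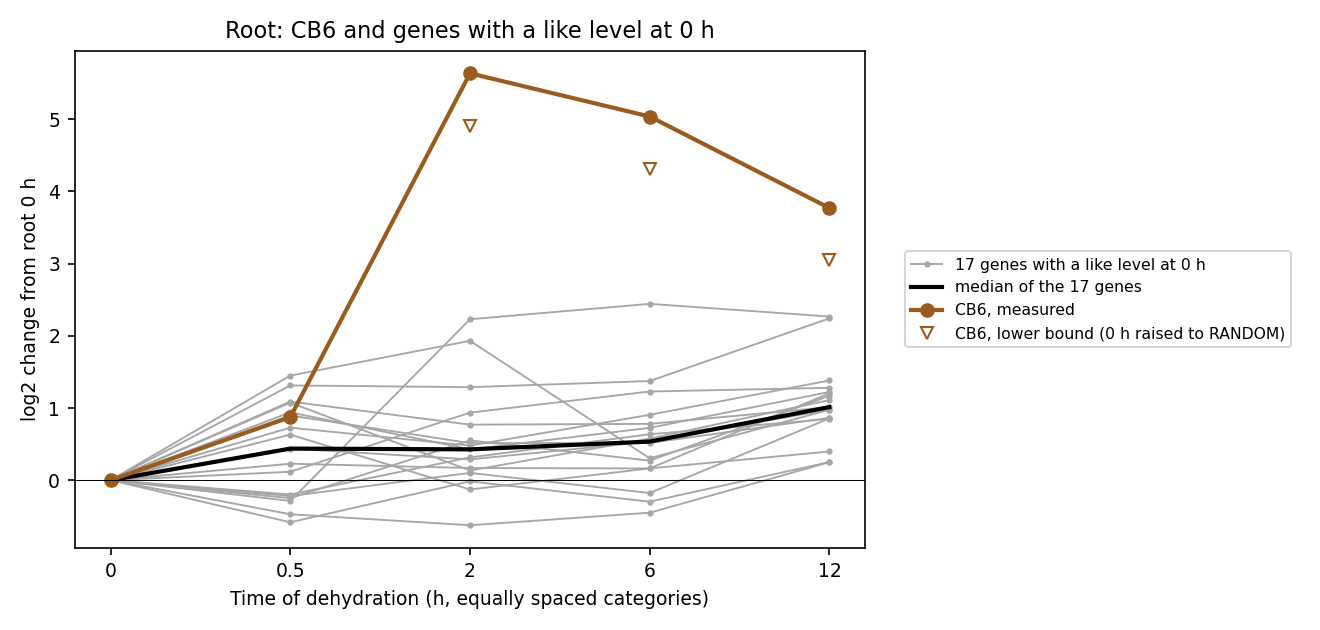
Log2 change from 0 h in root (vertical axis) against the time of dehydration in hours (equally spaced categories) for CB6, for each of the 17 genes with a like level in leaf and root at 0 h, and for their median; triangles give the lower bound of the CB6 change with 0 h raised to RANDOM. CB6 lies at 5.64 at 2 h, where the highest of the 17 genes lies at 2.23.

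The other chlorophyll a/b binding protein genes of the study, CB1 to CB5, were also picked by the study for their rise in root, so their root values carry no test either. rbcS, which the study used as a marker of repression by water deficit, is described beside them in the same way. They started from a measurable level, with all 6 above RANDOM on both root arrays at 0 h. CB2 (AK119176), the gene of CB1 to CB5 with the highest change in root at 2 h, had root intensities of 802 and 1415 before drying, which stood at 4336 and 4716 after 2 h and at 2822 and 6866 after 12 h. Its replicate 1 was highest at 2 h and its replicate 2 at 12 h, while both replicates of CB6 were highest at 2 h.

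In root the log2 changes of CB1 to CB5 ran from 1.02 to 2.09 at 2 h (median 1.39), from 1.16 to 1.73 at 6 h (median 1.37) and from 1.64 to 2.26 at 12 h (median 2.02). The measured change of CB6 exceeded these medians by 4.25 at 2 h, 3.67 at 6 h and 1.75 at 12 h, and with values below RANDOM raised to it the excess was at least 3.53, 2.95 and 1.02. At 0.5 h the order of the mean changes was the other way, with CB1 to CB5 between 1.24 and 1.70 and CB6 at 0.87. For that CB6 value 1 of 2 arrays was above RANDOM. CB6 gave 345 on replicate 1 and 83.8 on replicate 2, whereas each of CB1 to CB5 was higher on replicate 2. With root 0.5 h replicate 2 left out the CB6 change was 1.89, so the order at 0.5 h depends on the replicate. For rbcS the changes were 1.70 after 0.5 h and 2.68, 2.36 and 3.54 after 2, 6 and 12 h. The median of CB1 to CB5 thus was highest at 12 h, when CB6 had come down from its 2 h level. Gene by gene, the 12 h arrays overlapped the 2 h arrays for CB1, CB2, CB3 and CB5, and lay above them for CB4 alone.

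The 2 root replicates differed in these leaf markers. The summed intensity of CB1 to CB5 and rbcS was 14238, 10718 and 15351 in replicate 1 after 2, 6 and 12 h, and 22800, 24392 and 40490 in replicate 2, which thus stood 1.60, 2.28 and 2.64 times as high. All 6 markers were higher in replicate 2 at each of these times, none was below RANDOM, and 14, 17 and 16 of the 17 like-level genes were higher in replicate 2. CB6 was higher in replicate 2 at 2 h and at 12 h and lower at 6 h. At 0 h the order was the other way, with a marker sum of 5838 in replicate 1 and 4922 in replicate 2. From 0 h to 2 h CB6 went from 102 to 4045 in replicate 1, and the marker sum went from 5838 to 14238. In replicate 2 CB6 went from 84.3 to 5262, and the marker sum went from 4922 to 22800. The part of these markers in the CB6 values was not tested further.

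In leaf, 0 of the 6 genes CB1 to CB5 and rbcS were called lower up to 6 h, and 3 were at 12 h, beside 10.2% of all genes. CB1 fell by 1.86 (limma adjusted p = 0.0226), CB3 fell by 1.71 (limma adjusted p = 0.0205) and CB4 fell by 1.90 (limma adjusted p = 0.0047) on the log2 scale at 12 h. Without leaf 0 h replicate 1, leaf 0 h replicate 2 or leaf 12 h replicate 2, 1 of the 6 genes was called, CB4 in each case. The median change of the 6 genes at 12 h was -1.50, beside a median of -0.05 over all genes. The leaf change of CB6 exceeded the median of CB1 to CB5 by 0.74 at 12 h and differed from it by -0.07 at 2 h, and these differences were not tested.

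**Figure D3:**
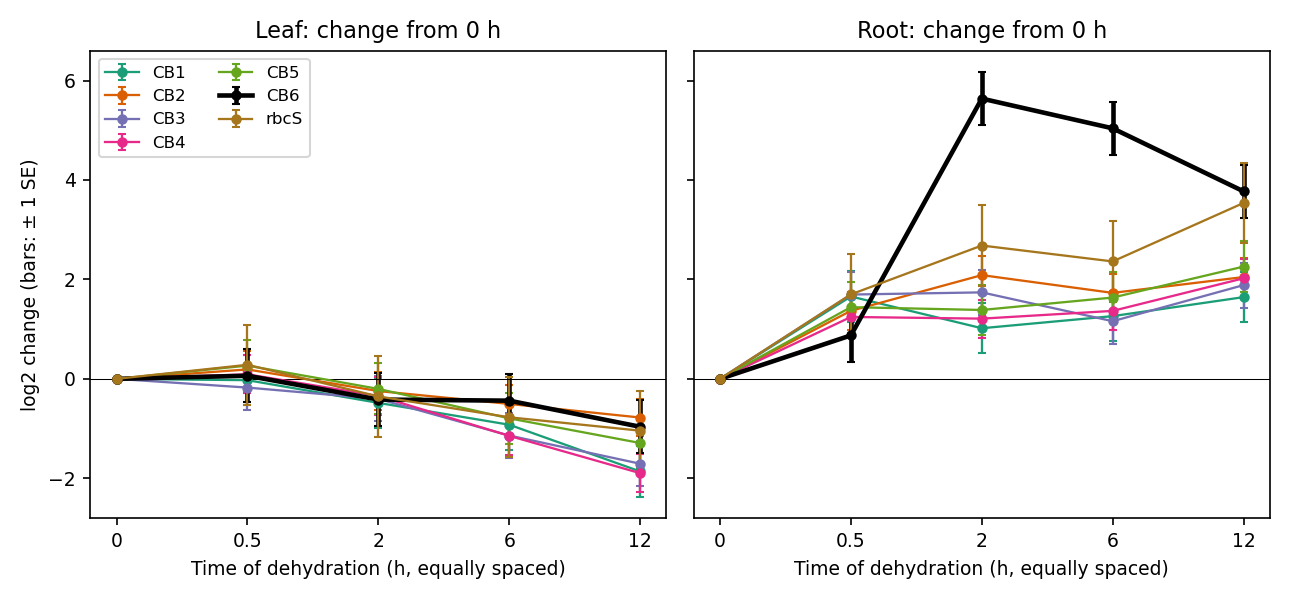
Log2 change from 0 h of the same tissue (vertical axis; bars are 1 SE of the limma fit, 2 arrays per group) against the time of dehydration in hours (equally spaced) for CB1 to CB6 and rbcS, with leaf on the left and root on the right. In root CB6 lies at 5.64 at 2 h and CB1 to CB5 between 1.02 and 2.09, and in leaf at 12 h CB6 lies at -0.96 and CB1 to CB5 between -1.90 and -0.78.

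The patterns nearest to that of CB6 over all arrays belonged to genes that started higher in root. By the Pearson correlation of log2 intensity over the 20 arrays, a description in which the 10 arrays of each tissue share the distance between leaf and root, 51 genes reached 0.9, or 0.185% of the genes. The highest were AK070249 (r = 0.971) and AK068001 (r = 0.970), and the third highest gene had 0.952. Within the 10 root arrays alone the correlation with CB6 was 0.967 for AK070249 and 0.927 for AK068001. There 231 genes, or 0.837% of the genes, reached 0.9, with 7 genes above AK070249 and 102 above AK068001. Within the 10 leaf arrays the correlation was -0.571 for AK070249 and 0.721 for AK068001. AK070249 was thus like CB6 in root and not in leaf.

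In the roots AK070249 had intensities of 255 and 337 before drying and 1237 and 164 after 0.5 h. The 2 h arrays had 5922 and 6766, the 6 h arrays 3724 and 3955, and the 12 h arrays 3331 and 4333. Its log2 changes were 4.43 at 2 h, 3.71 at 6 h and 3.70 at 12 h, and replicate 1 was the higher at 0.5 h, as for CB6. On replicate 2 at 0.5 h both genes lay below RANDOM (340). AK068001 went from 1659 and 1367 at 0 h to 7069 and 7498 at 2 h and 4142 and 4076 at 12 h, with log2 changes of 2.27 at 2 h and 1.45 at 12 h. AK070249 and AK068001 were at their highest root level at 2 h, as CB6 was. They were picked for their correlation with CB6 on these same arrays, so a shared course follows in part from the choice. The 6 h and 12 h arrays of AK070249 overlapped, whereas those of CB6 did not.

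The lowest correlations were those of Os02g0157600 (r = -0.915) and AK068993 (r = -0.910). Os02g0157600 went from 15097 and 14319 in root at 0 h to 1577 and 2043 at 12 h, a log2 change of -3.03. AK068993 went from 42875 and 41863 to 20993 and 27218, a change of -0.83. Within the root arrays their correlations with CB6 were -0.840 and -0.822, and within the leaf arrays 0.145 and -0.217.

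**Figure D4:**
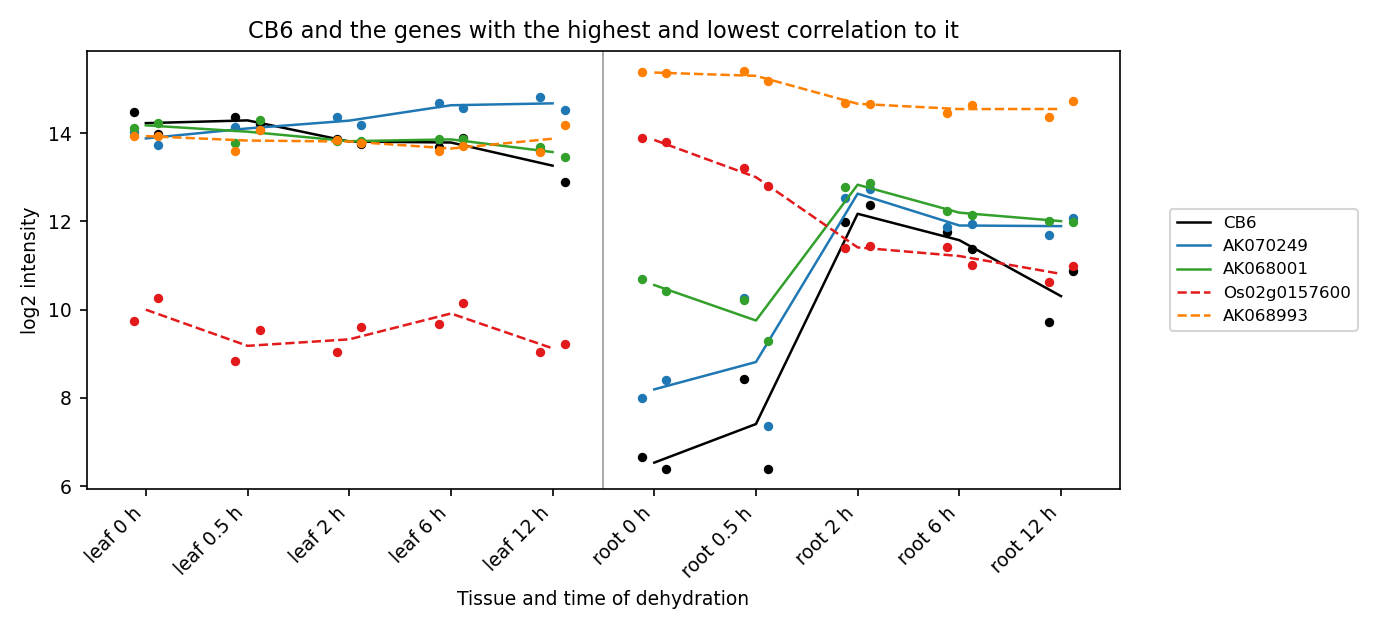
Log2 intensity (vertical axis) of CB6 and of the genes with the highest (AK070249, AK068001) and lowest (Os02g0157600, AK068993) Pearson correlation with it over the 20 arrays, by tissue and time of dehydration; points are single arrays and lines join group means. AK070249 and AK068001 have their highest root level at 2 h, as CB6 has, and Os02g0157600 and AK068993 lie lower in root at 12 h than at 0 h.

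The correlation of each of CB1 to CB5 with CB6 was lower within root than within leaf. Over the 10 root arrays the values were 0.213, 0.741, 0.418, 0.540 and 0.506. Over the 10 leaf arrays they were 0.831, 0.896, 0.868, 0.786 and 0.761. For rab21 (AK121952), a dehydrin gene used as the marker of dehydration, the correlation was 0.889 in root and -0.770 in leaf. In root its log2 change was 0.54 after 0.5 h and 2.24, 2.61 and 2.66 after 2, 6 and 12 h. Unlike that of CB6, it was not lower at 12 h than at 2 h.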

How the data were processed

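The deposited table held linear intensities per feature and array, which the authors made from Cy3 scans by RMA; whether its background step was included and which arrays were normalized together is not given in the sources used here. Of 27615 features, 6 controls were left out. The remaining 27609 were converted to log2 here, with no pseudocount, since the deposited intensities were all above 0. limma 3.58.1 in R 4.3.3 was fitted to all 20 arrays with 10 groups (lmFit, eBayes), p-values were adjusted by Benjamini-Hochberg over all genes, and the procedure was tested on simulated data. The members and lists were chosen with earlier results of these data known. Named genes were CB6, the photosynthesis genes to which the study gives both name and identifier, its dehydration marker rab21 (the other, dip1, was not used here), and the 2 highest and 2 lowest correlations with CB6. Like-level genes lay within 1 log2 unit of CB6 in both tissues at 0 h.

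No identifier matched the RefSeq table (0 matches), so genes keep the names of the files. Another 21 per-sample columns, deposited beside the table of intensities, were not used. The number of arrays limits the precision, and since the sources do not say how replicates were separated, p-values measure only the spread between these samples. Alternatives were other scaling of arrays, a floor at RANDOM, omission of dim genes, the leaf arrays alone, other variance priors, the replicate number as a block, other windows and choosing arrays for the like-level genes, and each array left out.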

Additional observations from a re-analysis of the deposited data

Results flagged for a closer look

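In the photosynthesis genes, every root array at a given time was above both root arrays of 0 h and every leaf array was below both leaf arrays of 0 h, which is why they are listed here; the difference between the tissues was not tested. The values are the log2 change in root minus the log2 change in leaf. For CB6 they were 6.05 at 2 h, 5.48 at 6 h and 4.73 at 12 h. For rbcS they were 3.04, 3.13 and 4.58 at the same times. For CB1 they were 1.50, 2.18 and 3.51, for CB2 2.33, 2.23 and 2.83, for CB3 2.14, 2.30 and 3.59, and for CB4 1.56, 2.51 and 3.92. CB5 met the description at 6 h (2.43) and at 12 h (3.55) only. The CB6 values rest on root 0 h arrays below RANDOM. With values raised to RANDOM they were 5.33, 4.75 and 4.01, so that at 12 h CB6 lay above rbcS as measured and below it when raised.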

How the results depend on the processing

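The changes of CB6 in leaf stayed outside the call under every alternative tried; the lowest adjusted p at 12 h was 0.0784 (limma, values raised to RANDOM). The rise in root at 2, 6 and 12 h kept its direction throughout. Quantile normalization within each tissue gave root changes of 5.93 at 2 h and 5.36 at 6 h, a root to leaf difference of -8.05 at 0 h, and an excess of the root change over the leaf change of 6.40 at 2 h and 5.84 at 6 h. Values raised to RANDOM gave root changes of 4.91, 4.31 and 3.05 at 2, 6 and 12 h, a root to leaf difference of -6.97 at 0 h, and an excess of 5.33, 4.75 and 4.01. Measured above the 5th percentile of genes in place of RANDOM, CB6 in root stood at -0.13, 1.40, 5.76, 5.21 and 4.10 from 0 h to 12 h, so at 0.5 h it turned from below to above the reference.

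The 0.5 h values rest on single arrays. Leaving out both 0.5 h arrays with a raised RANDOM feature, a setting chosen after seeing the data, turned the leaf change to -0.0087 and gave a root to leaf difference of -5.79 and an excess of 1.90. With each array left out in turn, the leaf change ranged from -0.18 to 0.31 at 0.5 h, from -0.66 to -0.17 at 2 h, from -0.68 to -0.19 at 6 h and from -1.33 to -0.60 at 12 h. It turned at 0.5 h when leaf 0 h replicate 2 (-0.18) or leaf 0.5 h replicate 1 (-0.0087) was omitted. The root change ranged from -0.15 to 1.89, from 5.45 to 5.83, from 4.84 to 5.23 and from 3.19 to 4.35 at the 4 times, and the lowest at 0.5 h was without root 0.5 h replicate 1. The root to leaf difference ranged from -7.93 to -7.45 at 0 h, -7.90 to -5.86 at 0.5 h, -1.83 to -1.45 at 2 h, -2.41 to -2.02 at 6 h and -3.54 to -2.38 at 12 h. The excess ranged from -0.21 to 1.83 (the lowest without root 0.5 h replicate 1), 5.81 to 6.30, 5.23 to 5.72 and 4.15 to 5.31.

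The like-level genes numbered 2 within 0.5 log2 units, 128 within 2, 29 when 0 h replicate 2 chose them and 41 with values raised to RANDOM. Their median root change at 0.5 h was -0.34 within 0.5 units, -0.00197 when replicate 1 chose them and 0.96 with quantile normalization within tissue, and at 2 h it was -0.15 within 0.5 units. When 0 h replicate 1 chose them and 0 h replicate 2 was the base, the medians at 2, 6 and 12 h were 0.10, 0.11 and 0.55. With these roles exchanged they were 0.30, 0.41 and 0.98. At 0.5 h, 0, 18, 3 and 1 genes changed more than CB6 (within 0.5 units, within 2, replicate 1 choosing, raised to RANDOM). At 12 h 1 gene did within 2 units (AK066849) and 1 with values raised to RANDOM (AK070249).

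The count of CB1 to CB5 and rbcS called lower in leaf at 6 h went from 0 to 1 with either quantile normalization, values raised to RANDOM, dim genes left out, only the leaf arrays, trend and robust priors, or both raised 0.5 h arrays out. With each array left out it ranged from 0 to 1 at 6 h and from 1 to 3 at 12 h, with 1 without leaf 0 h replicate 1, leaf 0 h replicate 2 or leaf 12 h replicate 2. With the replicate number as a block that count was 1 at 6 h (CB4) and 4 at 12 h (CB5 added), and the adjusted p of CB6 in leaf was 0.942, 0.653, 0.582 and 0.232 (limma). The leaf arrays alone also gave 4 at 12 h. Deviations of same-numbered arrays correlated between -0.16 and 0.72 over 45 pairs of groups, above 0.1 in 38. Same-numbered arrays thus shared part of their deviation in most pairs of groups. The main fit did not model this, because the sources do not say how replicates were separated. The causes of these changes were not tested.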
